A study of Mus musculus with 32 samples.

Results

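The cytosolic ribosomal protein genes were described across 32 arrays of mouse bone marrow B-lineage cells. Members were the genes named alone by at least 1 probeset whose symbol is that of a protein of the small (40S) or large (60S) ribosomal subunit, its acidic stalk (Rplp0, Rplp1 and Rplp2) or Rpsa, with pseudogenes by symbol and S6 kinases left out. This gave 60 genes of 19938 with a probeset of their own: 22 of the 40S subunit, 35 of the 60S subunit and 3 of the stalk. They have 216 probesets in all, and each gene was read on its brightest probeset (by the mean of the 32 arrays). Another 17 ribosomal protein genes, among them Rpl3, Rpl11, Rpl39, Rps24 and Rps27, were named only beside other genes and are not members. The symbol rule did not use any measured value, and no member was dropped by a filter.

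Mice of 7 groups, all of mixed C57BL/6 and CBA background, were compared, each array being labelled a biological replicate from 1 mouse. Leukemic bone marrow came from 6 Pax5+/-;Myd88+/- and 6 Pax5+/- mice, which carry 1 intact allele of Pax5, the transcription factor that holds cells in the B lineage, with or without loss of 1 allele of Myd88, the adaptor of Toll-like and interleukin-1 receptors. Bone marrow B220+ cells of healthy mice, called proB cells below, came from 4 Pax5+/-;Myd88-/-, 4 Pax5+/-;Myd88+/-, 4 Pax5+/- and 4 WT mice. Sorted B220low IgM- proB and preB cells came from 4 healthy WT mice. The Myd88 allele is a germline deletion (B6.129P2(SJL)-Myd88tm1.1Defr/J), so the loss affects every cell type of the mouse. The labels give a move to conventional housing at 2 months of age and no treatment for all groups. The methods describe the proB cells as taken at 2 to 3 weeks of age, selected for B220 and grown with 5 ng/ml IL7 on ST2 stromal feeder cells, which the labels do not mention, and do not describe the Pax5+/-;Myd88-/- cultures. If the proB cells were cultured, as the methods have it, culture cannot be told apart from the group wherever they are set against leukemias or sorted WT cells.

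A ribosome joins the 40S subunit, which reads the messenger RNA, to the 60S subunit, which forms peptide bonds, and most of its proteins are present once. The genes of these proteins are among the most highly transcribed in dividing cells, and MYC drives many of them together with the factors that assemble the subunits in the nucleolus. Their mRNAs begin with a run of pyrimidines, the 5′ terminal oligopyrimidine (TOP) motif, through which mTOR and LARP1 regulate their translation, so that an mRNA level does not report how much protein is made.

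The start sites show that shared feature and how unevenly the annotation captures it. RefSeq promoters (GRCm38.p6) matched 48 of the 60 genes with 57 annotated starts. A C at the start followed by 4 pyrimidines (C or T), searched on the strand as transcribed, stood at 10 of these 57 starts (17.5%), against 823 of all 32851 promoters (2.51%). A pyrimidine run of 8 or more within the 25 bases from 10 before to 15 after the start was found in 14 of the 57 (24.6%), against 9.49% of all promoters. Shown are genes that the results below turn on, with the longest pyrimidine run of the window in capitals; the annotated start is the 11th base. Rps21 and Rps27l each have 2 annotated starts, of which the one with the longer run is printed. The other start of either gene lacks the C with its pyrimidines and has no run longer than 4.
Rps21 (chr2:180257369-180257393, + strand): aggacccgCCCTCCTgcccaatagt
Rps12 (chr10:23787195-23787219, - strand): tcatgcggccaccgccggCCTTTTC
Rpl13 (chr8:123102340-123102364, + strand): TTTCgcctgattttgattggcgttt
Rps27l (chr9:66946076-66946100, + strand): CCTCCCCgccgcctctatcccggaa
Rpl12 (chr2:32961702-32961726, + strand): agcaggatccgTCTTTTCggctttc
Rpl27 (chr11:101442235-101442259, + strand): ctgTTCCTgtctgctgctcgtgctg
Rps6 (chr4:86857353-86857377, - strand): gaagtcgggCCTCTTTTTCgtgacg
Rpl28 (chr7:4792955-4792979, + strand): tctcgtgTCTCTCTTTCCgtctccg
Rps6, Rpl28 and, at 1 of its 2 starts, Rps21 carry the C and its pyrimidines at the start shown, whereas in Rps12 and Rpl12 a run of 7 lies downstream of it and in Rpl13 no run of 5 falls in the window. Rps21 on the one side and Rps6 and Rpl28 on the other lay at opposite ends when the arrays were split, as given below.

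Values are log2 RMA levels, so a difference of 1 is a factor of 2, and levels of different genes on different probesets are not compared. Replicates correlated at 0.9666 or more within the leukemia groups and 0.9906 or more in the groups of healthy mice. WT proB replicates 1 and 3 (r = 0.9982), like 2 and 4, resembled each other more than other pairs of that group. The labels call them separate replicates, and whether each pair shares a mouse is not known; if so, the WT proB errors rest on fewer mice than arrays. With each pair averaged, the same numbers of genes were called, 0 in Pax5+/- against WT proB cells and 5 in WT proB against sorted WT cells. Myd88 read 8.26 to 9.39 in Pax5+/-;Myd88+/- leukemias, against 9.87 to 10.38 in Pax5+/- leukemias, and 7.04 to 7.44 in Pax5+/-;Myd88-/- and 8.51 to 8.78 in Pax5+/-;Myd88+/- proB cells, against 9.21 to 9.35 in Pax5+/- proB cells. The mean of the 6 B lineage markers measured lay between 11.80 and 12.33 on all arrays of healthy mice. It was 9.95 to 12 in Pax5+/-;Myd88+/- and 9.24 to 12.12 in Pax5+/- leukemias, where 7 myeloid markers averaged 6.96 to 10.36 and 7.65 to 10.82, against 7.11 to 8.91 in sorted WT cells and 6.30 to 6.65 in proB cells. The 3 platelet markers averaged 6.11 to 10.22 in Pax5+/-;Myd88+/- and 8.94 to 11.51 in Pax5+/- leukemias, and at most 6.10 elsewhere. Sorted WT cells had the highest NK markers (8.31 to 9.14 over 3 genes, at most 6.36 elsewhere). The 2 erythroid markers averaged 10.36 to 11.08 in sorted WT cells, against 6.63 to 6.90 in proB cells. They averaged 7.42 to 11.55 in Pax5+/-;Myd88+/- and 7.55 to 9.7 in Pax5+/- leukemias. The 4 stromal markers averaged 7.76 to 10.4 in Pax5+/-;Myd88+/- and 8.26 to 9.44 in Pax5+/- leukemias, and 8.08 to 8.55 in Pax5+/-;Myd88-/-, 8.24 to 9.21 in Pax5+/-;Myd88+/-, 8.11 to 9.71 in Pax5+/- and 8.71 to 9.57 in WT proB cells, against 7.02 to 7.14 in sorted WT cells. The part of these other cells in the results below was not tested, and in such bulk RNA fewer cells of a type and less RNA per cell cannot be told apart.

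In Pax5+/-;Myd88+/- leukemias, 10 of the 60 genes were higher than in sorted WT cells and none was lower, at a limma adjusted p under 0.05 and an absolute log2 change over 1. Over all 28944 probesets, 3.33% were called higher and 4.3% lower. Rps21, a small protein of the 40S subunit, read 11.87 at the lowest, 12.14 at the median and 12.40 at the highest in the Pax5+/-;Myd88+/- leukemias, against 9.46, 9.73, 9.60 and 9.32 in the sorted WT cells. No leukemic value came within 2 log2 units of a sorted one, and the difference was 2.61 ± 0.13 (SE, adjusted p = 1.05e-09). Rps29, a zinc-binding protein of the 40S subunit, lay between 13.04 and 13.29 in the leukemias (median 13.12), against 11.13, 11.39, 11.05 and 11.08 in the sorted cells, a difference of 1.99 ± 0.08 (SE, adjusted p = 1.87e-10). Rps12, a protein of the 40S subunit, lay between 13.25 and 13.46, against 11.39 to 11.73 in the sorted cells, and rose by 1.85 ± 0.12 (SE). Rpl13 of the 60S subunit lay between 12.37 and 12.66, against 10.51 to 10.85, and rose by 1.84 ± 0.11 (SE). In each of these 4 genes all leukemias stood above all sorted samples, as they did in 26 of the 60 genes and 12.3% of all probesets. In 9 genes and 15.2% of all probesets they all stood below.

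The other 6 called genes rose by less. Rpl24, which reaches across the joint between the subunits, rose by 1.38 ± 0.08, and Rpl26, a 60S protein that also binds p53 mRNA in mammalian cells, by 1.33 ± 0.13 (SE). Rpl8 (1.19), a core protein of the 60S subunit, Rpl22 (1.17), a 60S protein needed for αβ T-cell development in mice, Rpsa (1.11), the 40S protein also known as the laminin receptor, and Rps25 (1.10) of the 40S subunit completed the set. Rpl27a, at 0.999 with an adjusted p of 7.75e-08, and Rps14, at 0.96, stood just outside the fold threshold on their brightest probesets. For Rpl27a 8 of 9 probesets were called higher (0.999 to 1.404 over all 9), and for Rps14 none was. The lowest change of a member was that of Rpl32l at -0.84, and the median over the 60 genes was 0.27, against -0.01 over all probesets. The median of the 22 genes of the 40S subunit was 0.62 and that of the 35 genes of the 60S subunit 0.12.

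**Figure D1:**
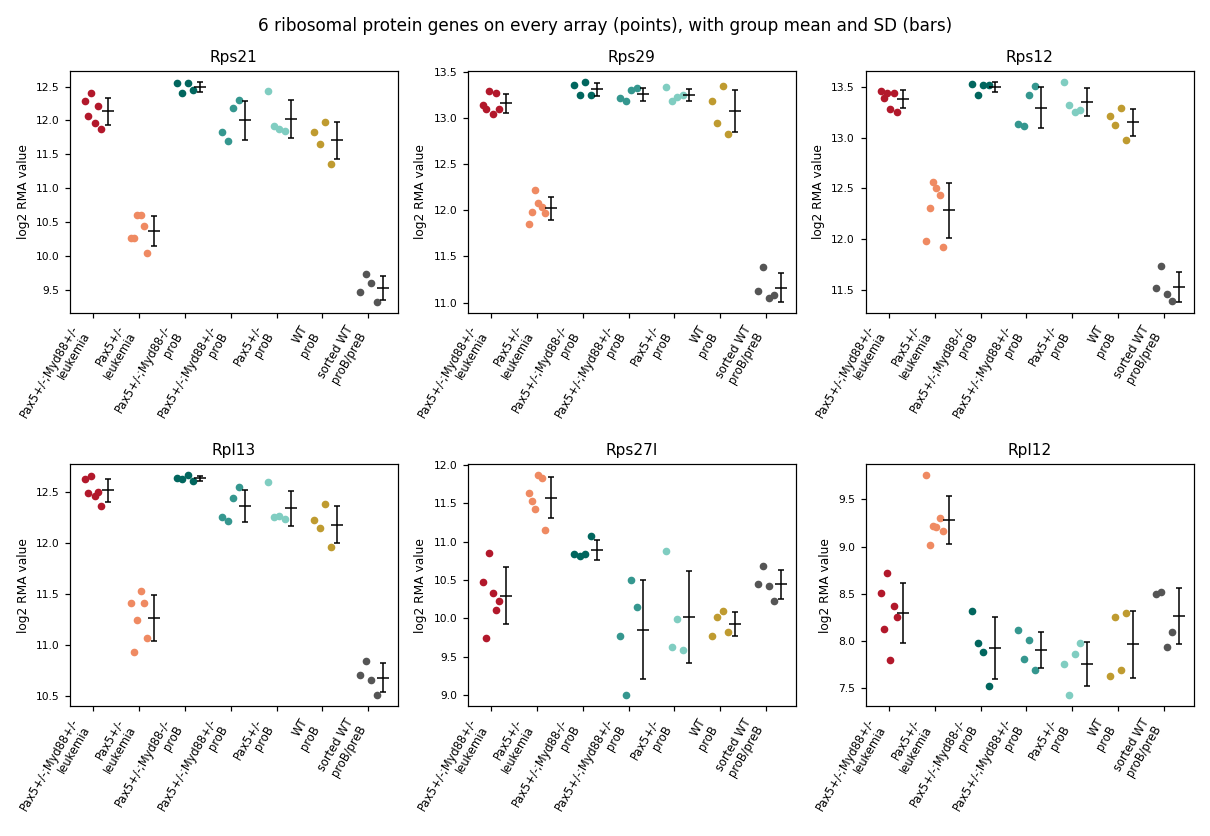
Log2 RMA values (vertical axes) of Rps21, Rps29, Rps12, Rpl13, Rps27l and Rpl12 on each of the 32 arrays in 7 groups, with the group mean and SD beside the points (n = 6 leukemias, n = 4 in other groups). Rps21 lies at 11.87 to 12.40 in Pax5+/-;Myd88+/- leukemias and 10.04 to 10.61 in Pax5+/- leukemias, against 9.32 to 9.73 in sorted WT cells, whereas Rps27l and Rpl12 are highest in Pax5+/- leukemias.

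In Pax5+/- leukemias, 2 of 60 genes were called higher than in sorted WT cells and none lower, where 2.73% of all probesets were called higher and 1.72% lower. Rps27l, a paralog of Rps27 induced by p53 whose product binds MDM2, read 11.15 at the lowest, 11.59 at the median and 11.87 at the highest in these leukemias, against 10.45, 10.69, 10.42 and 10.23 in sorted cells. The groups did not overlap, as in 32 of the 60 genes and 11% of all probesets on this side, and the difference was 1.13 ± 0.18 (SE, adjusted p = 0.000416). Rpl12, part of the base of the 60S stalk, read 9.02, 9.22 and 9.76 at the lowest, median and highest, against 8.50, 8.52, 7.93 and 8.09 in sorted cells, also without overlap, a difference of 1.02 ± 0.18 (SE, adjusted p = 0.000751). That call rests close to the threshold, since without Pax5+/- leukemia replicate 1, sorted WT replicate 3 or sorted WT replicate 4 the change was 0.92, 0.91 or 0.96, and after quantile normalization over all arrays 0.91. Of the 60 genes 55 had changes above 0, with a median of 0.35, against -0.03 over all probesets. Rps21, Rps29, Rps12 and Rpl13 had changes of 0.84, 0.86, 0.76 and 0.58, below the fold threshold.

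Set against each other, the 2 kinds of leukemia differed in 6 of the 60 genes. In Pax5+/-;Myd88+/- leukemias, 4 were higher and 2 lower than in Pax5+/- leukemias, where 1.25% of all probesets were called higher and 2.56% lower. Rps21 differed most, lying at 11.87 to 12.40 in Pax5+/-;Myd88+/- leukemias and at 10.04 to 10.61 (median 10.36) in Pax5+/- leukemias, a rise of 1.76 ± 0.11 (SE, adjusted p = 4.65e-08). Rpl13 was 12.37 to 12.66 against 10.93 to 11.53 (1.25 ± 0.10), Rps29 13.04 to 13.29 against 11.85 to 12.22 (1.13 ± 0.07) and Rps12 13.25 to 13.46 against 11.92 to 12.56 (1.09 ± 0.11, SE). None of these ranges overlapped, and all Pax5+/-;Myd88+/- leukemias stood above all Pax5+/- leukemias in 13 of the 60 genes and 7.32% of all probesets, and below in 14 genes and 6.98% of all probesets.

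Rps27l lay at 9.75 to 10.86 in Pax5+/-;Myd88+/- leukemias (median 10.28), against 11.15 to 11.87 in Pax5+/- leukemias, a log2 change of -1.28 ± 0.16 (SE) with an adjusted p of 2.41e-05. Rpl27, a 60S protein, lay at 11.25 to 11.93 against 12.40 to 12.75, a change of -1.005 ± 0.10 (SE), but 3 of its 4 probesets moved the other way, as described below. Rpl12 stood just outside the threshold at -0.99 and Rpl7l1, a paralog of Rpl7 with a role in ribosome assembly, at -0.90. The median over the 60 genes was -0.09, against 0.01 over all probesets, with 26 above 0 and 34 below. The 2 kinds of leukemia also differ in platelet markers, given above. They also lie on opposite sides of a split in the order of the samples, given below. Without the 4 leukemias lowest in B lineage markers, which were replicates 2 and 4 of either genotype, 5 of 60 genes were called, 4 of them higher, while Rpl27 at -0.95 missed the fold threshold. Rpl27 also missed it, at -0.985 to -0.938, without Pax5+/-;Myd88+/- replicate 4 or 6 or Pax5+/- replicate 1 or 4.

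**Figure D2:**
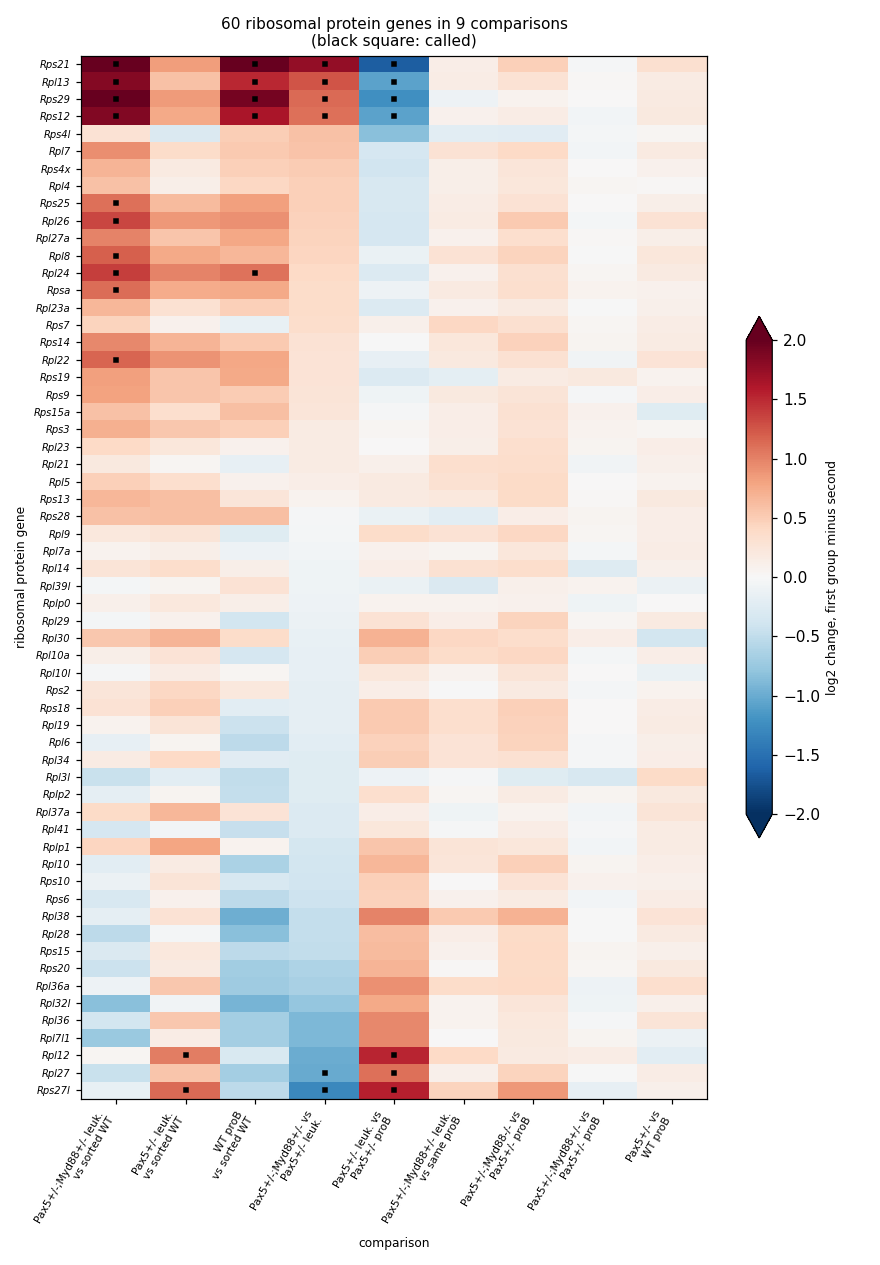
Log2 change (colour, first group minus second) of each of the 60 genes (rows, ordered by the change between the 2 kinds of leukemia) in 9 comparisons (columns), with called genes marked by a black square. Rps21, Rpl13, Rps29 and Rps12 are called in 4 comparisons, higher in 3 and lower in Pax5+/- leukemias against Pax5+/- proB cells.

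The WT proB cells were also set against the sorted WT cells, with no leukemia involved. In WT proB cells 5 of 60 genes were called higher than in sorted WT cells and none lower, where 3.75% of all probesets were called higher and 6.2% lower. Rps21 read 11.83, 11.66, 11.98 and 11.35 in WT proB cells, against 9.46, 9.73, 9.60 and 9.32 in sorted WT cells, a rise of 2.18 ± 0.15 (SE, adjusted p = 4.76e-12). Rps29 rose by 1.91 ± 0.09, Rps12 by 1.62 ± 0.12, Rpl13 by 1.5 ± 0.11 and Rpl24 by 1.08 ± 0.10 (SE). In all of these genes the 4 WT proB samples stood above the 4 sorted ones, a separation also common elsewhere, with 23 of the 60 genes and 24.9% of all probesets all above and 20 genes and 21.9% of all probesets all below. The stromal markers separate these groups too, with 3 of 4 called higher in WT proB cells (median 2.10). Other markers were called lower in WT proB cells: 2 of 2 erythroid (median -3.97), 3 of 3 NK (-3.09), 3 of 7 myeloid (-1.615) and 1 of 2 T-cell markers (-1.06). Among members on the lower side Rpl38, a 60S protein that in mouse embryos is needed for translation of Hox mRNAs, was at -0.98. Rpl32l, a gene related in sequence to Rpl32, was at -0.93, and both were short of the fold threshold. Some genes not called on their brightest probeset were called on others. Higher were 7 of 9 probesets of Rpl27a and 4 of 5 of Rpsa, and 1 of 4 of Rpl38 was lower (-1.03). The median over the 40S genes was 0.49 and over the 60S genes -0.17.

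Since this comparison and that between the leukemias share no array, their changes can be set side by side. Over the 60 genes they correlated at r = 0.89 (Spearman 0.89), and 49 of 60 genes (81.7%) had the same sign. Over all 28944 probesets r was 0.55 (Spearman 0.53), with 70.4% of the same sign. These are correlations across genes, which are not independent replicates and share probesets and the layout of the array. With the comparison of Pax5+/-;Myd88+/- against Pax5+/- proB cells, which also shares no array with the leukemias, r over the 60 genes was 0.09. Put by arrays, 5 of the 60 genes (Rpl13, Rpl4, Rps12, Rps21 and Rps29) had all 10 values of the Pax5+/- leukemias and sorted WT cells below all 22 others, and 5 (Rpl28, Rpl32l, Rpl36, Rpl7l1 and Rps6) had all 10 above. Of all probesets 3.01% showed the first split and 3.1% the second. Rps6, the target of S6 kinase, read 13.42 to 13.68 over the 10 arrays, against 12.82 to 13.31 over the 22, and Rpl28 13.34 to 13.50 against 12.47 to 13.27. The 10 arrays are also the last 10 in the order in which the samples are listed, and the 22 come before them. Rps21, Rps29, Rps12 and Rpl13 were called only in comparisons that set arrays of one side against the other, the interaction included. In those comparisons a batch that followed this order could not be told apart from the groups. The labels name no batch that divides the arrays in this way, and whether one was shared was not tested.

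**Figure D3:**
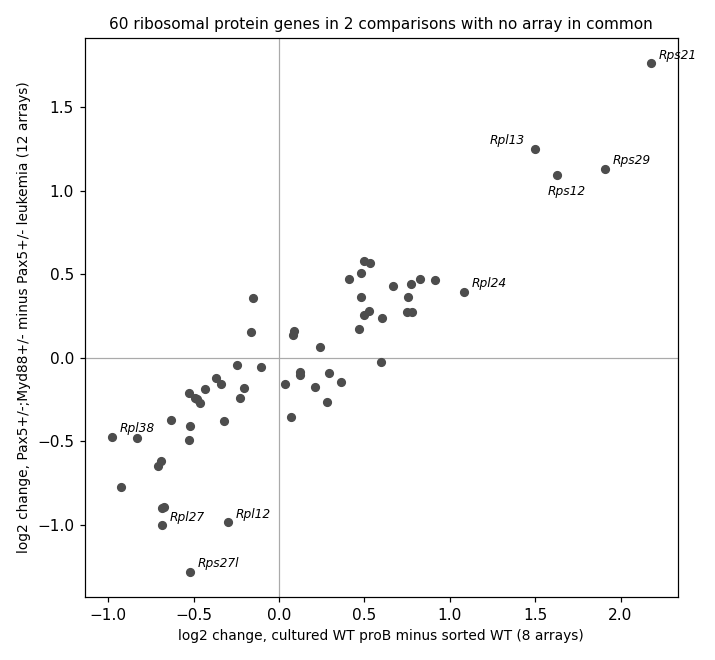
Log2 change of each of the 60 genes (points) between the 2 kinds of leukemia (vertical axis) and between WT proB and sorted WT cells (horizontal axis), which have no array in common. Rps21, Rps29, Rps12 and Rpl13 lie apart at the upper right, and the correlation over the 60 genes is 0.89.

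Between genotypes of proB cells 3 pairs were tested, Pax5+/- against WT and the Myd88 genotypes against Pax5+/-, and no ribosomal protein gene was called in them. In Pax5+/- against WT proB cells none of the 60 was called (limma; 6 at an unadjusted p under 0.05, and 0 by the methods' t-test with its fold threshold), where 0.618% of all probesets were called higher and 0.46% lower. Changes ran from -0.37 to 0.39 with a median of 0.14, and 54 of 60 were above 0. The median was 0.04 without Pax5+/- replicate 1 and 0.06 without WT replicate 4. In Pax5+/-;Myd88+/- against Pax5+/- proB cells none was called either (1 at an unadjusted p under 0.05, and 0 by the methods' t-test), where 0.352% of all probesets were called higher and 0.46% lower. The median was 0.00 and the range -0.32 to 0.19. Rps21, for example, read 11.83, 11.69, 12.18 and 12.30 in Pax5+/-;Myd88+/- proB cells, against 12.44, 11.92, 11.88 and 11.84 in Pax5+/- proB cells.

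In Pax5+/-;Myd88-/- against Pax5+/- proB cells the genes were shifted upwards together, though by less than the fold threshold. None was called (limma; 44 at an unadjusted p under 0.05, and 0 by the methods' t-test with its fold threshold), where 0.567% of all probesets were called higher and 0.415% lower. With no threshold on the fold, 13 of 60 were higher at an adjusted p under 0.05 and none lower, against 6.66% of all probesets higher. The median was 0.30, with 58 of 60 above 0, and -0.02 over all probesets. Rps27l had the highest change at 0.87, reading 10.84, 10.81, 10.84 and 11.08 in Pax5+/-;Myd88-/- cells, against 10.88, 9.63, 9.99 and 9.59 in Pax5+/- cells (adjusted p = 0.0569), so that the ranges overlapped through Pax5+/- replicate 1. Rpl38 was at 0.70, and Rpl10, on the X chromosome, at 0.48 (adjusted p = 0.0374). Other bright probesets were shifted too: the 581 other probesets with a mean of 12 or more had a median of 0.26, against 0.33 for the 37 members as bright. The 581 may include some of the 235 probesets that name a ribosomal protein gene beside other genes, whose median was 0.38 here. They are therefore not known to be free of ribosomal protein genes. The shift depended on scaling and on single arrays. After quantile normalization over all 32 arrays the median was 0.13 and 2 genes were higher at an adjusted p under 0.05, and leaving out 1 array at a time gave 2 to 38 such genes, 38 without Pax5+/- replicate 1. The 4 stromal markers all had changes below 0 here, with a median of -0.62, and their part in the shift was not tested.

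The spread within groups was itself shared among the genes. Each array was summarized as the median over the 60 genes of its difference from the gene's mean over all arrays. This was 0.20 to 0.30 in Pax5+/-;Myd88-/- proB cells, -0.27 to 0.10 in Pax5+/-;Myd88+/-, -0.17 to 0.19 in Pax5+/- and -0.39 to -0.08 in WT proB cells. It was -0.05 to 0.29 in Pax5+/-;Myd88+/- and 0.02 to 0.17 in Pax5+/- leukemias, and -0.31 to -0.08 in sorted WT cells. Among Pax5+/- proB cells replicate 1 stood at 0.19 while the other 3 lay at -0.17 to -0.09. After each group's mean was removed, the 1770 pairs of genes had a median correlation of 0.53 over the 32 arrays, and 91.2% were above 0, as a description of arrays that share their normalization. Rpl27a, Rpl38 and Rps21 followed the median of the other genes most closely (r of 0.94), and Rps4l ran against it (-0.44).

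**Figure D4:**
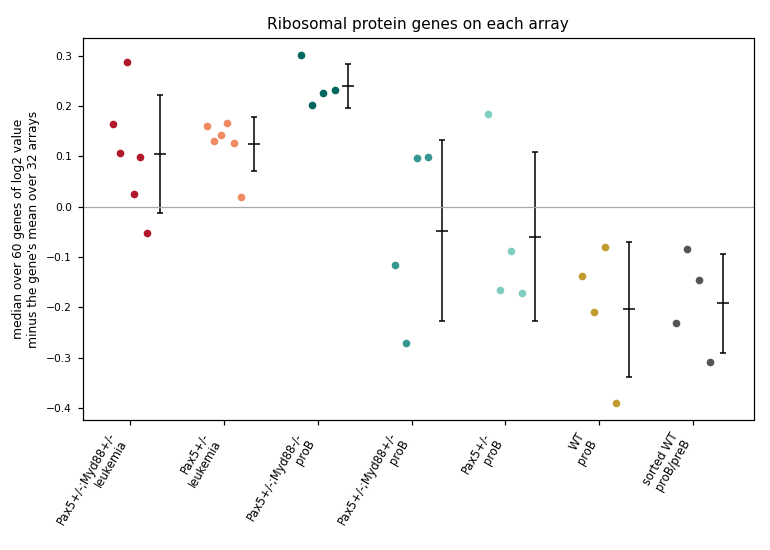
Median over the 60 genes of the log2 value minus the gene's mean over all 32 arrays (vertical axis), for each array in the 7 groups, with the group mean and SD. The 4 Pax5+/-;Myd88-/- proB arrays lie at 0.20 to 0.30, above the WT proB arrays at -0.39 to -0.08.

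Leukemias were also compared with proB cells of their own genotype. In Pax5+/- leukemias 3 genes were higher and 4 lower than in Pax5+/- proB cells, where 6.05% of all probesets were called higher and 2.42% lower. The higher ones were Rps27l, at 11.15 to 11.87 against 10.88, 9.63, 9.99 and 9.59 (1.55 ± 0.23), Rpl12, at 9.02 to 9.76 against 7.75, 7.42, 7.86 and 7.97 (1.53 ± 0.18), and Rpl27 (1.09 ± 0.11, SE). The lower ones were Rps21, at 10.04 to 10.61 against 12.44, 11.92, 11.88 and 11.84 (-1.65 ± 0.14), Rps29 (-1.22 ± 0.08), Rpl13 (-1.08 ± 0.10) and Rps12 (-1.07 ± 0.11, SE). That of Rpl27 depends on the probeset, since its other 3 probesets were called lower here (-1.02, -1.02 and -1.56). The ranges of Rps21, Rps27l and Rpl12 did not overlap, where 20 of the 60 genes and 14.6% of all probesets lay all above and 10 genes and 19.3% of all probesets all below. Rpl13 was at -0.99 without Pax5+/- proB replicate 1, and Rps12 at -0.998 without it and -0.99 without Pax5+/- leukemia replicate 6, each then short of the fold threshold.

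In Pax5+/-;Myd88+/- leukemias against Pax5+/-;Myd88+/- proB cells none of the 60 was called (limma; 20 at an unadjusted p under 0.05, and 0 by the methods' t-test with its fold threshold), where 1.95% of all probesets were called higher and 0.895% lower. Changes ran from -0.28 to 0.53 with a median of 0.13. Rps21 lay at 11.87 to 12.40 in the leukemias, against 11.83, 11.69, 12.18 and 12.30 in the proB cells, so that the ranges overlapped.

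Whether the difference between Pax5+/-;Myd88+/- and Pax5+/- cells was the same in leukemias and proB cells was tested as an interaction. It is equally the test of whether the 2 genotypes differ in leukemia against proB cells. The interaction was called for 6 genes, 4 with a higher and 2 with a lower difference in leukemias, where 1.76% of all probesets were called in the first direction and 2.79% in the second. The estimates were 1.78 ± 0.20 for Rps21, 1.23 ± 0.14 for Rpl13, 1.15 ± 0.15 for Rps12 and 1.13 ± 0.12 for Rps29, and -1.14 ± 0.25 for Rpl12 and -1.11 ± 0.33 for Rps27l (SE). Rps21, Rpl13, Rps12 and Rps29 were also called higher in WT proB against sorted WT cells, which both have intact Myd88. Xist separates the 2 proB groups, as given below. Whether Myd88 or another difference between the groups underlies the interaction was not tested. Rps27l was at -0.93 without the 4 leukemias of low B lineage markers and between -0.98 and -0.90 without Pax5+/- proB replicate 2 or 4 or Pax5+/-;Myd88+/- proB replicate 3, and Rpl12 was at -0.99 after quantile normalization, all short of the fold threshold.

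Paralogs were measured on probesets of their own. Rpl39l and Rpl10l, copies known for their expression in testis, and Rpl3l, known from striated muscle, had means over all arrays of 5.16, 5.90 and 6.25, and none was called in any comparison. Rpl3l had 1 value apart, 7.76 in Pax5+/- leukemia replicate 3, against 5.77 to 6.44 in the other 5. Rps4l, a paralog of Rps4x, averaged 7.62 ± 0.21 in Pax5+/-;Myd88+/- and 7.04 ± 0.10 in Pax5+/- leukemias (SD, n = 6 each), while Rps4x averaged 13.27 ± 0.10 and 12.76 ± 0.17 there. Rpl7, a 60S protein, averaged 12.87 ± 0.13 in Pax5+/-;Myd88+/- and 12.30 ± 0.13 in Pax5+/- leukemias (SD, n = 6 each), a change of 0.57, whereas Rpl7l1 was at -0.90. Rpl22 was at 0.27 there, with an adjusted p of 0.0516. The partners Rpl3, Rpl22l1, Rpl39 and Rps27 have no probeset of their own here.

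No gene of the stalk, which recruits translation factors, was called on its brightest probeset. Rplp0, with a mean of 13.41, changed by -0.10 to 0.20 in the 10 comparisons, and Rplp1 had a change of 0.79 in Pax5+/- leukemias and 0.43 in Pax5+/-;Myd88+/- leukemias against sorted WT cells (adjusted p of 2.02e-05 and 0.00159). The dimmer of the 2 probesets of Rplp1 was called higher against sorted WT cells in 3 comparisons. Its change was 1.30 in Pax5+/- leukemias, 1.46 in Pax5+/-;Myd88+/- leukemias and 1.13 in WT proB cells. Rplp2 lay between -0.48 and 0.34. Rpl5, which with Rpl11 and 5S rRNA forms the particle that holds MDM2 off p53, averaged 12.94 ± 0.12 in Pax5+/-;Myd88+/- and 12.80 ± 0.18 in Pax5+/- leukemias, against 12.46 ± 0.14 in sorted WT cells (SD, n = 6, 6 and 4), changes of 0.48 and 0.34. Rps19 and Rps14, 40S proteins whose loss in human blood cells causes anemia, were at 0.82 and 0.96 in Pax5+/-;Myd88+/- leukemias against sorted WT cells and at 0.55 and 0.68 in Pax5+/- leukemias. On the brightest probesets none of these reached the fold threshold.

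Of the 3 members on the X chromosome none was called in any comparison. Rpl10, which closes the maturation of the 60S subunit, averaged 13.21 ± 0.21 in Pax5+/-;Myd88+/- and 13.59 ± 0.10 in Pax5+/- leukemias, against 13.43 ± 0.07 in sorted WT cells. Rpl36a averaged 12.52 ± 0.21 and 13.16 ± 0.04 in the 2 kinds of leukemia and 12.62 ± 0.13 in sorted WT cells (SD). Xist, which marks cells with 2 X chromosomes, read 12.29 to 12.52 in Pax5+/-;Myd88-/- and Pax5+/-;Myd88+/- proB cells and 12.23 to 12.46 in sorted WT cells, against 5.32 to 6.11 in Pax5+/- and WT proB cells, and ran from 5.39 to 12.80 in Pax5+/-;Myd88+/- and 5.44 to 9.72 in Pax5+/- leukemias. By this marker sex cannot be told apart from the group where Pax5+/-;Myd88-/- or Pax5+/-;Myd88+/- proB cells are set against Pax5+/- proB cells, or WT proB against sorted WT cells. Xist was also lower in every Pax5+/- leukemia than in every sorted WT sample, so the limit covers that comparison. The interaction includes Pax5+/-;Myd88+/- against Pax5+/- proB cells and shares the limit.

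For most genes with several probesets these changed in the same direction. Of the 39 genes with several probesets, 8 had changes of both signs between the 2 kinds of leukemia, and Rpl27 alone was called in both directions. Its brightest probeset averaged 11.58 ± 0.27 in Pax5+/-;Myd88+/- and 12.59 ± 0.13 in Pax5+/- leukemias. The next brightest averaged 11.99 ± 0.27 against 10.92 ± 0.39, a change of 1.07 ± 0.17 (SE, adjusted p = 0.000171), and the next holds the same values as that one. The dimmest averaged 11.84 ± 0.27 against 10.24 ± 0.60, a change of 1.60 ± 0.23. Over the 32 arrays the brightest correlated at -0.51 with the next and -0.62 with the dimmest, and those 2 with each other at 0.99. The files do not give the positions of these probesets. For the 4 leading genes the probesets agreed: between the 2 kinds of leukemia 2 of 2 were called higher for Rps21 (1.76 and 1.80), 4 of 4 for Rps29 (1.05 to 1.14), 14 of 14 for Rps12 (1.02 to 1.13) and 5 of 9 for Rpl13 (0.85 to 1.25), though probesets of a gene can share probes. The 14 probesets of Rps12 hold only 8 distinct sets of values, so some of them repeat others. Of the 235 probesets that name a ribosomal protein gene beside other genes, 36 were called higher in Pax5+/-;Myd88+/- leukemias against sorted WT cells. In Pax5+/- leukemias against sorted WT cells 7 were higher, and in WT proB cells against sorted WT cells 26. None was called lower in these comparisons, where 3.33%, 2.73% and 3.75% of all probesets were called higher. Between the leukemias 15 were higher and none lower, where 1.25% of all probesets were called higher. In Pax5+/- leukemias against Pax5+/- proB cells 2 were higher and 8 lower, where 6.05% of all probesets were called higher and 2.42% lower.

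**Figure D5:**
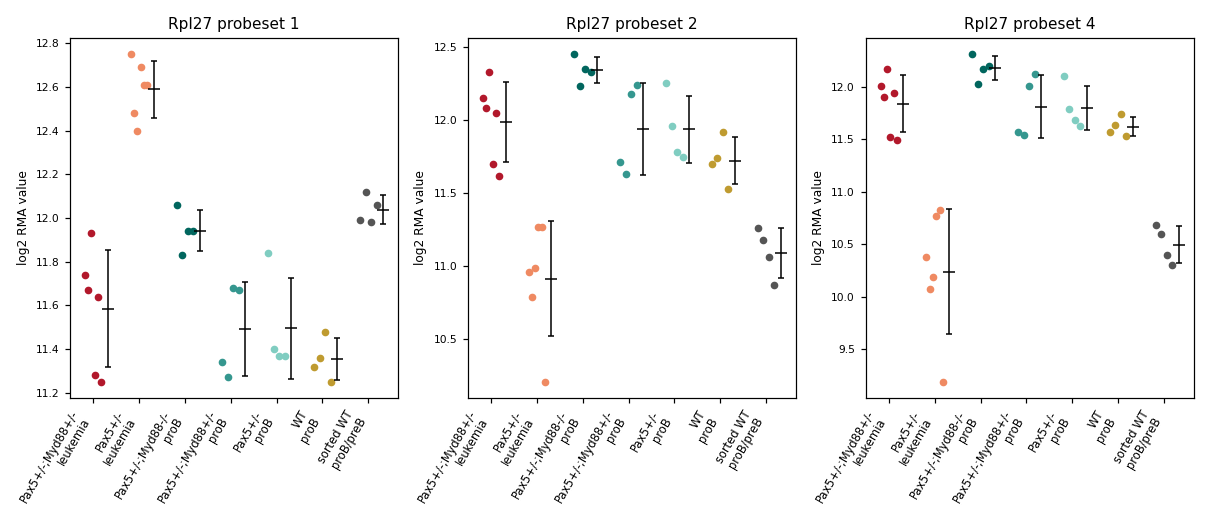
Log2 RMA values (vertical axes) of Rpl27 on its probesets ranked 1, 2 and 4 by brightness, for each array in the 7 groups, with the group mean and SD. The brightest is highest in Pax5+/- leukemias at 12.40 to 12.75, where the dimmest has its lowest group mean with values of 9.19 to 10.83.

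The wider translation machinery was described by lists. Of 30 ribosome assembly factors, 7 were called higher and 1 lower in Pax5+/-;Myd88+/- leukemias against sorted WT cells (median 0.53), 4 and 0 in Pax5+/- leukemias (median 0.69) and 10 and 1 in WT proB cells (median 0.53). Of all probesets 3.33%, 2.73% and 3.75% were called higher in these comparisons, and 4.3%, 1.72% and 6.2% lower. Nop58, a core protein of box C/D snoRNA particles, rose by 1.74 in Pax5+/-;Myd88+/- leukemias and by 1.79 in WT proB cells, and Tsr1, Utp20 and Gnl3, which act in subunit assembly, rose in all 3 (Tsr1 by 1.34, 1.03 and 1.38). Eif6, which keeps 60S subunits from joining 40S subunits too early, changed by -1.23 in Pax5+/-;Myd88+/- leukemias and -1.51 in WT proB cells against sorted WT cells, and by -1.38 in Pax5+/-;Myd88+/- against Pax5+/- leukemias. Between the leukemias no other assembly factor was called. Myc averaged 11.11 ± 0.52 in Pax5+/-;Myd88+/- and 11.62 ± 0.44 in Pax5+/- leukemias, against 9.59 ± 0.12 in sorted WT cells (SD, n = 6, 6 and 4), rises of 1.52 and 2.03, and rose by 1.48 in WT proB cells, where its values ran from 10.18 to 11.97.

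Of 17 further genes with TOP mRNAs, Eif3f, a subunit of initiation factor 3, changed by -1.17 in Pax5+/-;Myd88+/- leukemias against sorted WT cells, by -1.56 in WT proB against sorted WT cells and by -1.27 in Pax5+/-;Myd88+/- against Pax5+/- leukemias. Eef1b2, an elongation factor subunit, rose by 1.02 in the first of these, and Fau, which encodes a 40S protein fused to a ubiquitin-like one, fell by 1.49 in the second. Of all probesets 4.3%, 6.2% and 2.56% were called lower in these, and 3.33% higher in the first. In Pax5+/- leukemias against Pax5+/- proB cells 2 of the 17 were called higher and none lower (median 0.54). There 11 had a limma adjusted p under 0.05, and 6.05% of all probesets were called higher. None of the 9 regulators of TOP mRNAs was called in any comparison. Of 7 genes of the p53 response at most 1 was called in any comparison, where 0.352% to 6.2% of all probesets were called in a given direction. In Pax5+/-;Myd88+/- against Pax5+/- proB cells 7 of 7 were above 0 (median 0.27), 3 at a limma adjusted p under 0.05. The median was -0.47 with 1 of 7 above 0 in Pax5+/-;Myd88+/- leukemias against proB cells of that genotype. In the interaction it was -0.467 with 0 of 7 above 0. Elsewhere medians ran from -0.177 to 0.325, with 2 to 6 of 7 above 0. They were 0.29 with 6 of 7 above 0 in Pax5+/- leukemias against sorted WT cells and -0.12 with 2 of 7 above 0 in Pax5+/- leukemias against Pax5+/- proB cells. Phlda3 rose by 1.22 in Pax5+/- leukemias against sorted WT cells and by 1.05 against Pax5+/- proB cells. Zmat3, an RNA-binding p53 target, rose by 1.07 in WT proB against sorted WT cells and was at -1.34 in Pax5+/-;Myd88+/- leukemias against proB cells of that genotype.

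The 77 genes of mitochondrial ribosomal proteins encode parts of a separate ribosome. Between Pax5+/-;Myd88+/- and Pax5+/- leukemias, 8 were called lower and none higher (median -0.43), where 2.56% of all probesets were called lower and 1.25% higher, with Mrpl57 at -2.14, Mrpl34 at -2.09 and Mrpl23 at -2.02. Against sorted WT cells, 8 were lower and none higher in Pax5+/-;Myd88+/- leukemias, 1 was higher and none lower in Pax5+/- leukemias, and 9 were lower and none higher in WT proB cells. The shares of all probesets called lower were 4.3%, 1.72% and 6.2%. In Pax5+/- leukemias against Pax5+/- proB cells 15 were higher and none lower (median 0.57, against -0.05 over all probesets), where 6.05% of all probesets were called higher and 2.42% lower.

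Introns of ribosomal protein genes carry many small nucleolar RNAs (snoRNAs), which guide modification of rRNA. By RefSeq coordinates 38 snoRNAs lie within 19 of the 60 genes, and 11 of them, in 9 genes, have a probeset of their own. Of these, 8 were called higher in Pax5+/-;Myd88+/- leukemias against sorted WT cells (median 2.09), 3 in Pax5+/- leukemias (median 0.78) and 8 in WT proB cells (median 1.47), and none lower. Between the leukemias 7 were higher and 1 lower (median 1.27). Over all 54 snoRNAs measured, 32, 16 and 25 were called higher in the first 3 comparisons and 25 in the last, shares of 59.3%, 29.6%, 46.3% and 46.3% of them. Of all probesets 3.33%, 2.73%, 3.75% and 1.25% were called higher there. In Pax5+/- leukemias against Pax5+/- proB cells 5 of the 11 were lower and none higher (median -0.68). Of the 54, 21 were lower and 4 higher there, where 2.42% of all probesets were called lower and 6.05% higher.

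Snord15a, within Rps3, lay at 10.44 to 12.08 in Pax5+/-;Myd88+/- leukemias and 6.92 to 8.47 in Pax5+/- leukemias, against 7.67 to 7.79 in sorted WT cells, a change of 3.13 between the leukemias, where the host was at 0.17. Snord42a, within Rpl23a, changed by 2.92 there and the host by 0.36, Snora33, within Rps12, by 1.27 and the host by 1.09, and Snora62, within Rpsa, by 1.56 and the host by 0.36. Snora52, within Rplp2, went the other way at -1.02, with the host at -0.24. Of the 11 snoRNAs, 8 changed by more than their hosts in size and 3 did not (Snora3, Snora21 and Snora70), the named ones being chosen after their values were seen, and a probeset of a snoRNA can also read the intron of its host.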

How the data were processed

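The authors hybridized RNA of each sample to an Affymetrix mouse gene array and deposited log2 values, made with Transcriptome Analysis Console as gene-level RMA (background correction, quantile normalization, median polish) on mm10. Whether all 32 arrays were normalized together is not given in the sources used here. No column of the deposited table was left unused. Genes were named from the platform annotation, where 21789 of 28944 probesets name 1 gene, and all 60 members matched RefSeq by gene ID. The members' median rank was at the 98.4th percentile of mean values, where RMA can understate a fold. The number of arrays limits the precision.

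Models were fitted with limma 3.58.1 in R 4.3.3 (lmFit, eBayes, Benjamini-Hochberg adjustment over all 28944 probesets), on the leukemia and sorted WT arrays, on the proB arrays, and on all 32 arrays for comparisons across them and the interaction. Calls needed an adjusted p below 0.05 together with more than 1 log2 unit of change. Tables were made with Python 3.11.15, pandas 2.3.3 and NumPy 2.4.6. In simulated data with 200 probesets changed by 1.5, at least 181 were recovered per comparison and no more than 2 others were called. Whether these counts carry over to probesets that move together within groups, as the members did, was not tested. Replicates are those of the labels, and p-values measure the spread between them.

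Alternatives were other sets of arrays in the fit, median centring, removal of probesets with means below 6, a block for the replicate number, limma's trend option, the methods' t-test, the mean of a gene's probesets, near-identical WT arrays averaged, and each array left out. Quantile normalization over all arrays and leaving out leukemias with low B lineage markers were added after seeing the data. Named members are up to 6 called genes in each direction of a comparison, paralog pairs, Rpl5, Rps14, Rps19, Rpsa, the stalk and X-linked genes, and those with the lowest and highest mean; Rpl8, Rps25, Rpl4, Rpl28, Rpl32l, Rpl36, Rpl38, Rps6, Rpl27a and Rps3 were named after their values were seen. The members and lists were chosen with earlier results of these data known.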

Additional observations from a re-analysis of the deposited data

Results flagged for a closer look

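In groups of 4 to 6 arrays, 1 value stood far from its group by Dixon's criterion in 11 of 189 groups tested (26 named genes and the median over all 60, in 7 groups each), where chance gives about 1 in 20. Of these, 4 concern replicate 1 of the Pax5+/- proB cells, which read 12.44 for Rps21 (others 11.84 to 11.92), 12.60 for Rpl13 (12.24 to 12.27), 11.84 for Rpl27 (11.37 to 11.40) and 9.63 for Rpl22 (9.18 to 9.25). Among Pax5+/-;Myd88-/- proB cells, replicate 2 read 13.42 for Rps12 (others 13.52 to 13.53) and replicate 4 read 11.08 for Rps27l (10.81 to 10.84). In Pax5+/- leukemias, replicate 3 read 7.76 for Rpl3l (others 5.77 to 6.44) and replicate 6 read 12.42 for Rps4x (12.79 to 12.92). Rplp0 was 13.49 in WT proB replicate 3 (others 13.37 to 13.39), and in sorted WT cells Rpl22 was 8.39 in replicate 2 (8.21 to 8.23) and Rplp2 was 8.74 in replicate 4.

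The difference between Pax5+/-;Myd88+/- and Pax5+/- in leukemias minus that in proB cells was past the threshold for Rps21 (1.78), Rpl13 (1.23), Rps12 (1.15), Rps29 (1.13), Rpl12 (-1.14) and Rps27l (-1.11), by the interaction term of limma over all arrays. The limits given above for the interaction apply.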

How the results depend on the processing

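With the mean of all probesets of a gene in place of the brightest, Rpl27 changed sign, to 0.685 in Pax5+/-;Myd88+/- against Pax5+/- leukemias and -0.627 in Pax5+/- leukemias against Pax5+/- proB cells, since its other probesets moved the other way. The count called in Pax5+/- leukemias against sorted WT cells was then 4 instead of 2, and the median in Pax5+/-;Myd88+/- leukemias against sorted WT cells 0.41. Quantile normalization over all 32 arrays, added after seeing the data, gave 1 call and a median of 0.208 in Pax5+/- leukemias against sorted WT cells. Medians under it were 0.133 in Pax5+/-;Myd88-/- against Pax5+/- proB cells and -0.013 in Pax5+/- leukemias against Pax5+/- proB cells, Rps25 was at 0.91 and Rpsa at 0.95 in Pax5+/-;Myd88+/- leukemias against sorted WT cells, and the cause was not tested. Leaving out 1 array at a time gave 1 to 3 calls in Pax5+/- leukemias against sorted WT cells (1 without sorted WT replicate 4 or Pax5+/- leukemia replicate 1) and 0 to 1 in Pax5+/-;Myd88-/- against Pax5+/- proB cells (1 without Pax5+/- proB replicate 1). The other 93 counts and 63 medians with all arrays or the 4 leukemias out stayed within 1.5 times (counts) or within 1 SD between replicates (medians), as did 101 counts and 104 medians with 1 array out. Medians near 0 still moved by more than 1.5 times then, to 0.043 to 0.182 in Pax5+/- against WT proB cells, -0.055 to 0.101 in Pax5+/-;Myd88+/- against Pax5+/- proB cells, 0.041 to 0.138 in WT proB against sorted WT cells, 0.087 to 0.217 in Pax5+/- leukemias against Pax5+/- proB cells, 0.057 to 0.184 in Pax5+/-;Myd88+/- leukemias against proB cells of that genotype, and -0.102 to -0.051 between the leukemias. Deviations of same-numbered samples from their group means correlated at -0.155 to 0.521 over all probesets, which does not settle whether the numbers pair any of them. With the replicate number as a block, 11 instead of 10 genes were called in Pax5+/-;Myd88+/- leukemias against sorted WT cells. The counts were 3 instead of 2 in Pax5+/- leukemias against sorted WT cells and 8 instead of 7 in Pax5+/- leukemias against Pax5+/- proB cells.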
